A study of Mus musculus with 8 samples.

Results

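The mitochondrial genome of the mouse was followed through 8 RNA-seq libraries of splenic B cells, by taking every row of the deposited count files whose gene symbol begins with mt-. This gave 37 rows of 55401: 13 mRNA genes, 2 ribosomal RNA genes and 22 transfer RNA genes. There are 4 groups with 2 libraries each, namely Jmjd1c B cell knockout (KO) and wild-type (WT) germinal center B cells, and KO and WT activated B cells. All mice were C57BL/6. Germinal center B cells were sorted by FACS, whereas activated B cells were enriched from spleen with PanB biotin and SA beads and then activated. JMJD1C, the product of the deleted gene, belongs to a family of Jumonji histone demethylases. The driver of the knockout, the deleted exons, the age of the mice, the activating agent and whether replicates came from separate mice are not stated in the labels. The p-values therefore measure the spread between these libraries, which may be technical. edgeR moderates that spread by pooling over genes, so its SE and p do not reflect a single row's replicates alone.

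Mitochondrial DNA is a small circle that is transcribed from both strands into long precursors. The tRNAs are interspersed between the rRNA and mRNA genes, and cutting at the tRNAs releases the mature RNAs. Every one of its mRNAs encodes a core subunit of the respiratory chain or of ATP synthase, and its rRNAs and tRNAs serve the ribosome inside the organelle. The remaining subunits of the same complexes, and every factor that copies, transcribes, processes or translates mitochondrial genes, come from the nucleus. In B cells, activation and the germinal center reaction are known for large changes in mitochondrial mass and respiration.

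In the nuclear genome, copies of mitochondrial genes can be nearly identical to their originals, which bears on how reads are assigned. The first 60 bases of mt-Nd3, a subunit of complex I, are shown beside those of its copy on chromosome 1, because they hold the only base that differs over the 345 bases compared. Positions are counted from 1 at the first base of the gene, and the capital marks the substitution T3C, with the mitochondrial base named first.
mt-Nd3, chrM:9459-9518, plus strand: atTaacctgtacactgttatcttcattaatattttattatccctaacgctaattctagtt
Gm28438, chr1:24613060-24613119, minus strand: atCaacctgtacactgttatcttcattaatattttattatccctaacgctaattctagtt
Next, 4 tRNA genes are shown because their rows behave differently although all are similarly short. Capitals mark bases that the gene shares with a neighbouring gene on either strand.
mt-Ts1, a serine tRNA, chrM:6870-6938, minus strand: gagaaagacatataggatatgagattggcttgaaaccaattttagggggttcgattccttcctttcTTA
mt-Tp, the proline tRNA, chrM:15356-15422, minus strand: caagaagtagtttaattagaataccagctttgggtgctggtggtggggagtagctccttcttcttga
mt-Tw, the tryptophan tRNA, chrM:4950-5016, plus strand: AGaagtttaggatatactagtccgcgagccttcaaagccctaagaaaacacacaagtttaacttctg
mt-Tl2, a leucine tRNA, chrM:11671-11741, plus strand: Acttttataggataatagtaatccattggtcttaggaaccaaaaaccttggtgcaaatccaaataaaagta
Sequences and coordinates are from GENCODE M21 on GRCm38, the assembly of mm10.

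Depth ran from 8777425 to 11414559 counts on genes per library, so a row at 1 CPM (counts relative to the library's total on genes) rests on 8.78 to 11.4 counts. As a check of the labels, Jmjd1c had 156 and 150.4 CPM in KO germinal center B cells against 185 and 168 CPM in WT, and 144 and 162 CPM in KO activated B cells against 289 and 298 CPM in WT. Its log2 fold change was -0.20 ± 0.04 (SE) in germinal center B cells and -0.94 ± 0.06 in activated B cells, and these effects differed (interaction 0.74 ± 0.07, adjusted p = 1.39e-14, edgeR). Reads over exons outside the deletion would still be counted, in either cell type. Why the decrease was smaller in germinal center B cells was not tested. The share of sorted or enriched KO cells that had lost the gene was not tested either. KO therefore names the label of a library, here and below. Of the germinal center markers, Bcl6 had 273 and 287 CPM in KO against 426 and 435 CPM in WT germinal center B cells, and 118 to 138 CPM in the 4 libraries of activated B cells. S1pr2 had 284 and 273 CPM in KO against 393 and 396 CPM in WT germinal center B cells, and 4.56 to 7.46 CPM in activated B cells. Genes of other cell types were also present, and their values stand beside the results they move with. In bulk samples, fewer cells of a type and less RNA per cell cannot be told apart.

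The mitochondrial share of all gene counts was largest in KO germinal center B cells. It was 9.20% and 9.52% there, against 5.51% and 5.27% in WT germinal center B cells, a ratio of the group means of 1.74. In activated B cells it was 2.66% and 2.54% in KO against 2.42% and 2.26% in WT, a ratio of 1.11. The groups did not overlap in either cell type, and the gap in germinal center B cells was many times the difference between replicates. In an exact two-sided permutation test both gave p = 0.333, the smallest that 2 libraries against 2 allow, so this design cannot reach 0.05. Between cell types the share was higher in germinal center B cells, by 3.60-fold within KO and by 2.31-fold within WT.

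**Figure D1:**
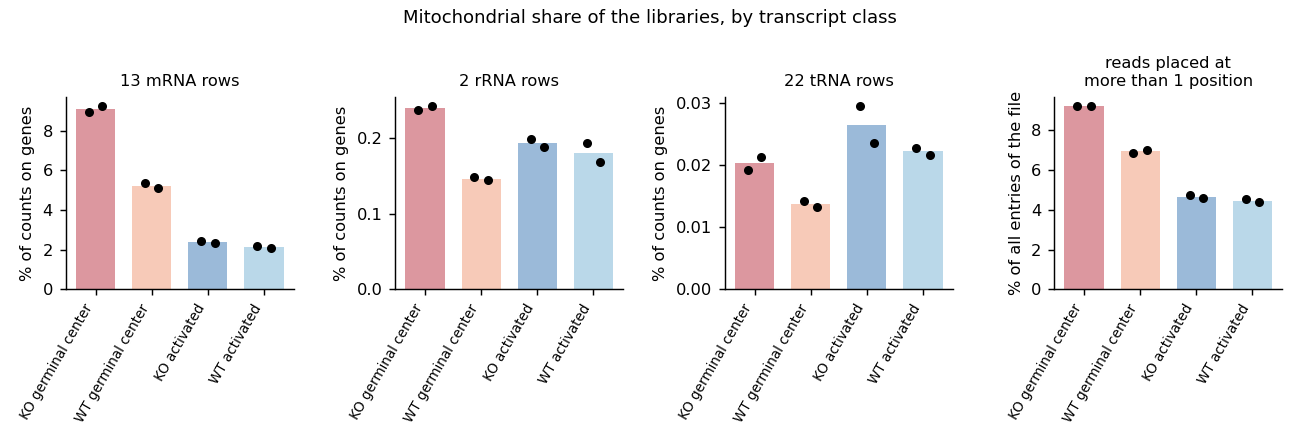
Share of the counts on genes held by the mitochondrial mRNA, rRNA and tRNA rows, and share of all entries of each file held by reads placed at more than 1 position. Points are single libraries, bars are group means of 2 libraries. The mRNA rows hold 8.95% and 9.25% of gene counts in KO germinal center B cells, above every other library.

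The classes did not move together. The 13 mRNA rows held 9.10 ± 0.22% of gene counts in KO and 5.23 ± 0.17% in WT germinal center B cells (mean ± SD, n = 2 each), and 2.38 ± 0.07% in KO and 2.13 ± 0.10% in WT activated B cells. The rRNA rows held only 0.240 ± 0.003% in KO and 0.146 ± 0.003% in WT germinal center B cells, and 0.193 ± 0.007% in KO and 0.180 ± 0.018% in WT activated B cells. Against activated cells of the same genotype, the rRNA share in germinal center B cells was thus 1.24-fold in KO and 0.810-fold in WT, where the mRNA share was 3.82-fold and 2.45-fold. The tRNA rows held less still, 0.0203 ± 0.0014% in KO and 0.0138 ± 0.0007% in WT germinal center B cells against 0.0265 ± 0.0043% in KO and 0.0222 ± 0.0007% in WT activated B cells. How the RNA was selected is not given in the sources used here.

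Within the mRNAs, levels per length spanned several orders of magnitude. The most abundant was mt-Co1, the catalytic core of complex IV (cytochrome c oxidase), at a mean of 28420 CPM per kb in KO and 15950 CPM per kb in WT germinal center B cells, and 7573 and 6589 CPM per kb in KO and WT activated B cells. It alone made up 46.9% to 49.2% of mitochondrial mRNA counts in every library. Next in germinal center B cells came mt-Cytb, the only mitochondrially encoded subunit of complex III, at 14430 CPM per kb in KO and 8168 CPM per kb in WT. Among subunits of complex I (NADH dehydrogenase), KO germinal center B cells had 9021 CPM per kb of mt-Nd1, 5815 of mt-Nd5, 4677 of mt-Nd6, 4278 of mt-Nd2 and 3100 of mt-Nd4. Neighbours in this order differed by more than the replicates did for those 7 genes in KO germinal center B cells.

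The other 6 mRNA rows stood far below. These were mt-Co2 and mt-Co3 of complex IV, mt-Atp6 and mt-Atp8 of complex V (ATP synthase), and mt-Nd3 and mt-Nd4l of complex I. In KO germinal center B cells their means ran from 12.1 CPM per kb for mt-Nd3 to 108 CPM per kb for mt-Co2, against 3100 CPM per kb for the lowest of the other 7. In activated B cells they were close to 0: mt-Nd4l had 0 and 1 counts in KO against 0 and 0 in WT, and mt-Atp8 had 0 and 0 counts in KO against 0 and 1 in WT. A count of 0 over both libraries of a group, with a floor of 3 counts, allows up to 0.160 CPM for mt-Atp8 in KO and for mt-Nd4l in WT activated B cells, from counting error only.

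**Figure D2:**
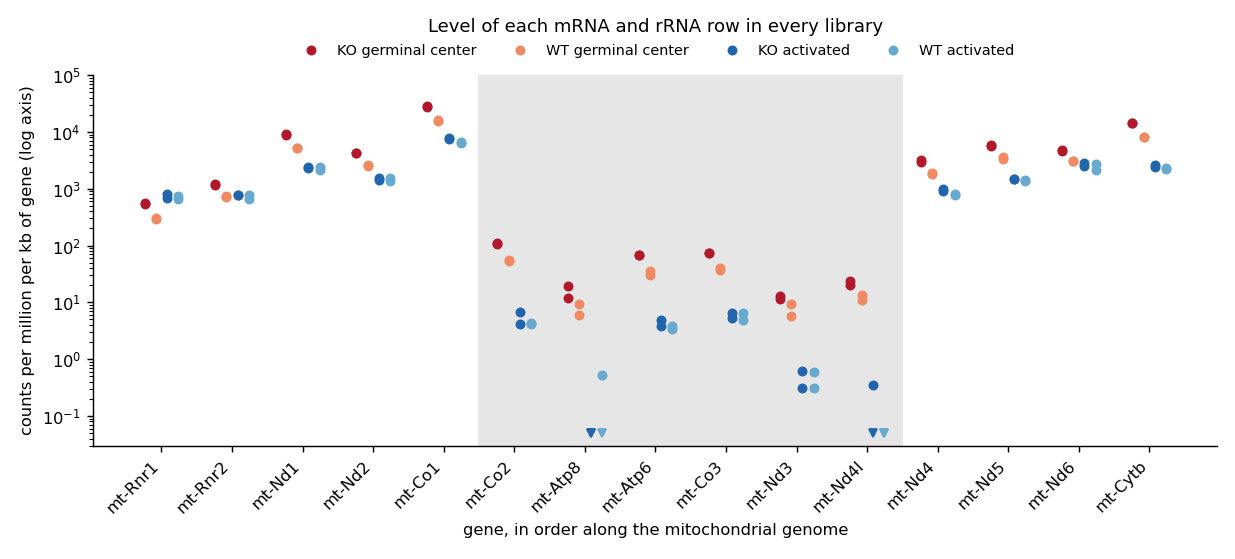
CPM per kb of gene for the 13 mRNA and 2 rRNA rows in each library, on a log axis, in order along the mitochondrial genome. Each point is 1 library, triangles at the bottom mark libraries with 0 counts, and the shaded rows are the 6 that lie within the stretch copied on chromosome 1, all of them below every unshaded row.

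These 6 rows lie side by side on the mitochondrial genome, and this stretch has a copy on chromosome 1. From chr1:24611535 to chr1:24616197 on the minus strand, 7 annotated pseudogene rows match mitochondrial positions 6390 to 11042. Their identities to the originals ran from 99.7% to 100% over the aligned bases. Over 99% of the length of mt-Co2, mt-Atp6, mt-Co3 and mt-Nd3 and 99.0% of mt-Nd4l is matched in this way, and so are 63.6% of mt-Nd4 and 31.3% of mt-Co1. Of mt-Atp8, annotated rows cover only the 43 bases it shares with mt-Atp6, which Gm10925 matches. Its other bases fall between the stretches that Gm28661 and Gm10925 match. These stretches are 233 bases apart on the mitochondrial genome, as the 2 rows are on chromosome 1. Any window of 50 bases of mt-Co2 also occurs in a nuclear copy (635 of 635 windows), as do 765 of 1496 windows of mt-Co1 and 0 of 1095 of mt-Cytb. If all their counts fell on the bases outside the copy, mt-Nd4 would stand at 8510 CPM per kb and mt-Co1 at 41300 CPM per kb in KO germinal center B cells. Levels of the 6 rows, and to a lesser degree of mt-Nd4 and mt-Co1, are therefore uncertain, and whether reads shared with the copy lower them was not tested.

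Reads that the counting placed at more than 1 position moved with the same groups. They made up 9.21% and 9.23% of all entries in KO germinal center B cells against 6.88% and 6.99% in WT, and 4.75% and 4.57% in KO activated B cells against 4.54% and 4.37% in WT. In total 16 nuclear rows copied a mitochondrial gene at 90% identity or more. They held 5.58 and 5.51 counts per 1000 mitochondrial counts in KO against 5.22 and 5.45 in WT germinal center B cells, and 1.44 and 1.03 in KO against 1.38 and 1.73 in WT activated B cells. The largest was Gm13340, a copy of mt-Co1 on chromosome 2 with 97.6% identity, at 241 and 251 CPM in KO against 139.9 and 128 CPM in WT germinal center B cells.

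In germinal center B cells the knockout was tested with edgeR's quasi-likelihood test on all 13350 genes that passed the filter on low counts, with Benjamini-Hochberg adjustment and a threshold of 0.05. Of the 37 mitochondrial rows, 23 entered the test. All 13 mRNAs rose in KO, as did both rRNAs and 7 of 8 tested tRNAs, so that 22 of 23 rose and 0 fell. Of all tested genes 50.2% were called, 25.1% higher and 25.1% lower. DESeq2 called 17 of the 23 higher and 0 lower, and at an unadjusted p under 0.05 edgeR also gave 22 higher and 0 lower. In all 23 rows both KO libraries lay above both WT libraries, against 36.1% of all tested genes. The median log2 fold change was 0.87 over the mRNAs, with a range of 0.64 to 1.08, against -0.0044 over all tested genes with quartiles of -0.25 and 0.28.

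Complex I subunits rose by similar amounts. The CPM values here and below carry the scaling of their comparison. mt-Nd1 had 8690 and 8926 CPM in KO against 4970 and 4869 CPM in WT germinal center B cells, a log2 fold change of 0.84 ± 0.03 (SE; adjusted p = 6.47e-217, edgeR). mt-Nd5, a proton-pumping membrane subunit, had 10690 and 10950 CPM in KO against 6514 and 6004 CPM in WT, 0.79 ± 0.03. Both groups stood well apart in these rows, and mt-Nd2 (0.79 ± 0.03) and mt-Nd4 (0.79 ± 0.03) gave nearly the same value. mt-Nd6, the only mRNA on the other strand, had 2447 and 2506 CPM in KO against 1607 and 1574 CPM in WT. Its log2 fold change of 0.64 ± 0.03 was the smallest of the 13. The use of strand in counting is not given. Reads of mt-Nd6 and of opposite-strand transcripts therefore cannot be told apart, here and below.

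For the other complexes, mt-Cytb had 16750 and 16940 CPM in KO against 9326 and 9072 CPM in WT germinal center B cells (log2 fold change 0.87 ± 0.03). mt-Co1 had 43620 and 45990 CPM in KO against 24920 and 23610 CPM in WT, 0.88 ± 0.02 (adjusted p = 2.54e-291, edgeR). The groups were far apart for both. Among rows within the copied stretch, the log2 fold changes of the 3 with most counts were those of mt-Co2 (77.8 and 73.4 CPM in KO against 36.6 and 37.5 CPM in WT, 1.03 ± 0.07), mt-Co3 (1.02 ± 0.08) and mt-Atp6 (1.07 ± 0.09). mt-Atp8 (1.08 ± 0.35) rested on 21 and 36 counts in KO against 19 and 14 in WT, and mt-Nd3 (0.70 ± 0.29) on 39 and 36 against 20 and 37. Summed with its near-identical copy Gm28438, mt-Nd3 did not pass (0.44 ± 0.22, adjusted p = 0.0871, edgeR). The copy itself was at 0.03 ± 0.36. In 1 fit of all 8 libraries mt-Nd3 did not pass either (adjusted p = 0.0576, edgeR). Adjusted p was 0.0048 for mt-Atp8 and 0.0295 for mt-Nd3 in edgeR, but 0.119 and 0.222 in DESeq2, and both calls were also lost when single libraries were left out. Without KO replicate 2 they were 0.296 and 0.0643, without WT replicate 1 mt-Nd3 was at 0.319, without WT replicate 2 mt-Atp8 was at 0.149, and without KO replicate 1 mt-Nd3 was at 0.156.

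**Figure D3:**
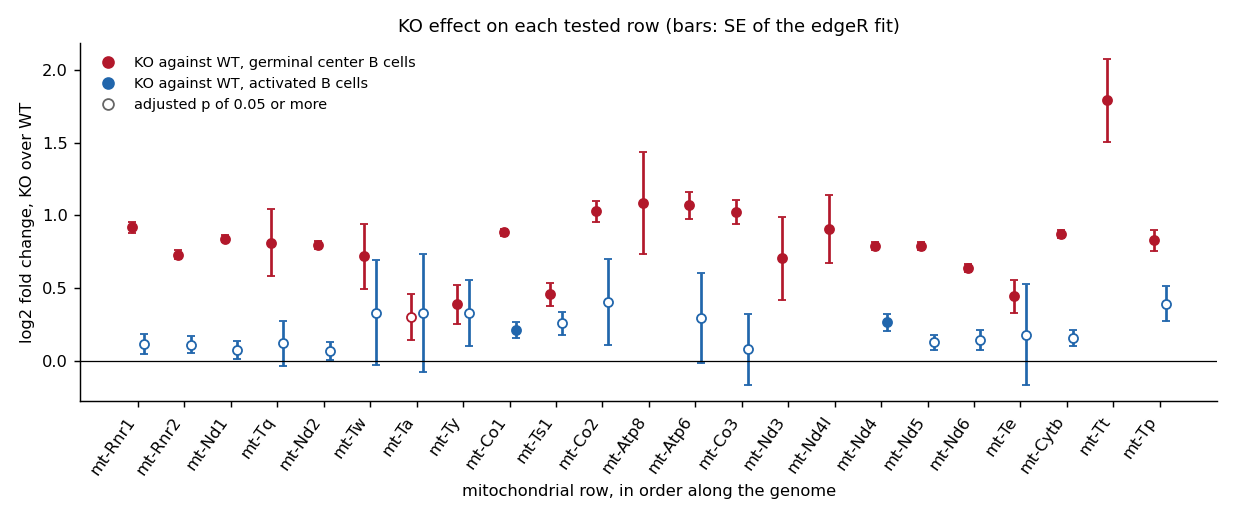
Log2 fold change of KO over WT in germinal center B cells (red) and activated B cells (blue) for each mitochondrial row tested, in order along the genome. Bars are the SE of the edgeR fit from 2 libraries against 2, and open points did not pass at an adjusted p of 0.05. In germinal center B cells 22 of 23 points are filled and all lie above 0, and in activated B cells 2 of 19 are filled.

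The structural RNAs of the mitochondrial ribosome rose as well. mt-Rnr1, the 12S rRNA of the small subunit, had 516 and 540.3 CPM in KO against 273 and 287 CPM in WT germinal center B cells (log2 fold change 0.92 ± 0.04). mt-Rnr2, the 16S rRNA of the large subunit, had 1899 and 1937 CPM in KO against 1183 and 1131 CPM in WT (0.73 ± 0.03). Neither row has a window of 50 bases in a nuclear copy.

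Rows for tRNAs divided by strand. Of 14 tRNA genes on the plus strand, 12 had 0 counts in all 8 libraries, which at 3 counts over all of them allows up to 0.0392 CPM, and only mt-Tw and mt-Tt held counts. mt-Tl2, shown above, is among those at 0. All 8 on the minus strand held counts, 6 of them at 10 or more in some library. mt-Tn and mt-Tc had at most 2 counts in a library and were not tested. Whether the counting used strand is not given in the sources used here, so reads of a tRNA and of transcripts from the opposite strand cannot be told apart, and the tRNA genes border or overlap their neighbours by a few bases.

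Among tested tRNA rows in germinal center B cells, mt-Tp had 74.0 and 82.1 CPM in KO against 45.1 and 42.9 CPM in WT (log2 fold change 0.83 ± 0.07). mt-Ts1 had 51.9 and 56.0 CPM in KO against 42.3 and 36.6 CPM in WT (0.46 ± 0.08). mt-Te, the glutamate tRNA, rose by a similar amount (0.44 ± 0.12), and in all 3 the groups were apart. mt-Tt, the threonine tRNA, had the highest fold change of all 23 rows at 1.79 ± 0.29, from 52 and 55 counts in KO against 24 and 14 in WT. mt-Tq, the glutamine tRNA (0.81 ± 0.23), mt-Tw (0.72 ± 0.22) and mt-Ty, the tyrosine tRNA (0.39 ± 0.13), passed in edgeR but not in DESeq2, where adjusted p was 0.0582, 0.0943 and 0.145. Without KO replicate 2 all 3 also missed the threshold in edgeR (adjusted p = 0.0507, 0.118 and 0.396), and without WT replicate 2 so did mt-Tw (0.0695) and mt-Ty (0.0696). mt-Ta, the alanine tRNA, had 12.2 and 11.98 CPM in KO against 9.49 and 10.1 CPM in WT and did not pass (0.30 ± 0.16, adjusted p = 0.108, edgeR).

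To see which rows moved by more or less than mitochondrial mRNA as a whole, the same fit was run with the summed counts of the 13 mRNAs as the library size. On this scale the median over all tested genes was -0.86, and 4.93% of them were called higher and 82.1% lower. In KO against WT germinal center B cells, 15 of 23 mitochondrial rows did not pass, among them mt-Co1 (0.03 ± 0.07), mt-Cytb (0.02 ± 0.07) and mt-Nd1 (-0.01 ± 0.06). Relative to mitochondrial mRNA 2 rows were higher, mt-Atp6 (0.22 ± 0.10) and mt-Tt (0.94 ± 0.29). Another 6 were lower, namely mt-Nd6 (-0.21 ± 0.06), mt-Rnr2 (-0.12 ± 0.06), mt-Ta (-0.55 ± 0.17), mt-Ty (-0.47 ± 0.14), mt-Te (-0.41 ± 0.12) and mt-Ts1 (-0.40 ± 0.09). Not all minus-strand rows were lower, as mt-Tp (-0.03 ± 0.08) and mt-Tq (-0.04 ± 0.23) did not pass. The rows mt-Nd6, mt-Ta, mt-Te and mt-Ts1 were also called lower whichever library was left out. The call of mt-Rnr2 was lost in each of the 4 cases, that of mt-Atp6 without KO replicate 1 (edgeR adjusted p = 0.200), KO replicate 2 (0.0508) or WT replicate 1 (0.543), that of mt-Tt without WT replicate 2 (0.168), and that of mt-Ty without KO replicate 1 (0.0551).

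Nuclear-encoded subunits of the same complexes went the other way in germinal center B cells. Of 77 tested subunits of complexes I to V, 0 rose and 58 fell in KO, where 25.1% of all tested genes rose and 25.1% fell. Their median log2 fold change was -0.28, and all 77 values were below 0. DESeq2 gave 0 higher and 40 lower, and at an unadjusted p under 0.05 edgeR gave 0 higher and 61 lower. By complex, 20 of 36 fell in complex I, 3 of 4 in complex II, which has no mitochondrially encoded subunit, 8 of 9 in complex III, 10 of 11 in complex IV and 17 of 17 in complex V. Cox6b1 of complex IV had 95.2 and 97.8 CPM in KO against 144 and 138.9 CPM in WT (-0.55 ± 0.05), and Cox6a1 fell alike (-0.50 ± 0.04). Atp5b, the catalytic beta subunit of ATP synthase, had 750.2 and 759 CPM in KO against 963 and 981 CPM in WT (-0.37 ± 0.03). Ndufa1 of complex I (-0.67 ± 0.10), Uqcrfs1, the Rieske iron-sulfur protein of complex III (-0.46 ± 0.06), and Sdhb of complex II (-0.46 ± 0.05) also fell, each with both KO libraries below both WT libraries.

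**Figure D4:**
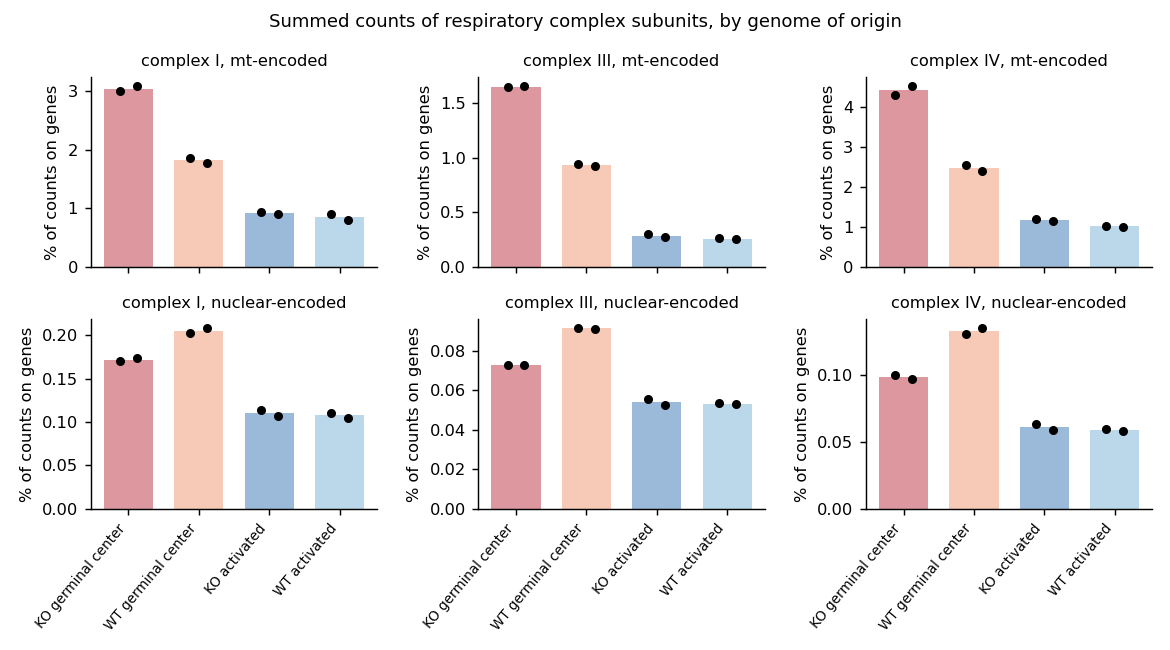
Summed counts of the mitochondrially encoded subunits (upper row) and of the nuclear-encoded subunits (lower row) of complexes I, III and IV, as a share of the counts on genes. Points are libraries, bars are means of 2. In germinal center B cells the upper panels are higher and the lower panels lower in KO than in WT, as for complex IV with 4.3% and 4.51% in KO against 2.54% and 2.41% in WT above, and 0.1001% and 0.0969% in KO against 0.131% and 0.135% in WT below.

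Proteins of the mitochondrial ribosome, which the 2 rRNAs assemble with, were also lower in part. In the large subunit 23 of 48 fell and 1 rose, Mrpl24 (0.34 ± 0.05), and in the small subunit 12 of 30 fell and 0 rose. The shares that fell were 47.9% and 40%, against 25.1% of all tested genes. DESeq2 called fewer, 6 lower and 1 higher in the large subunit and 4 lower and 0 higher in the small one, where an unadjusted p under 0.05 gave 12 lower and 0 higher. Mrps18a fell by 0.51 ± 0.07 and Mrpl18 by 0.35 ± 0.06 on the log2 scale. Of 28 genes for import, porins and matrix enzymes, 21 fell and 1 rose, or 75% and 3.57%. Those that fell include Cs, citrate synthase (-0.42 ± 0.04), and Vdac3, a porin of the outer membrane (-0.55 ± 0.05).

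Genes that maintain, transcribe and process mitochondrial nucleic acid were called higher at shares near the 25.1% of all tested genes. Of 25 genes for transcription and mtDNA replication, 7 rose and 4 fell, or 28% and 16% (DESeq2 2 higher and 0 lower). The lowest p was that of Tk2, the mitochondrial thymidine kinase (55.9 and 54.6 CPM in KO against 33.3 and 35.1 CPM in WT, 0.69 ± 0.08), followed by Mterf2, a termination factor family member (0.61 ± 0.13). Of 27 genes for RNA processing and stability, 8 rose and 3 fell, or 29.6% and 11.1% (DESeq2 5 higher and 0 lower). Elac2, which cuts tRNAs at their 3′ end (0.36 ± 0.08), Trnt1, which adds their CCA end (0.39 ± 0.06), and Pnpt1, the mitochondrial polynucleotide phosphorylase (0.27 ± 0.06), were among those that rose. Translation factors and tRNA synthetases gave 11 higher and 4 lower of 32, or 34.4% and 12.5%. Their lowest p was that of Lars2, the mitochondrial leucyl-tRNA synthetase, at 667 and 640.3 CPM in KO against 406 and 286 CPM in WT (0.92 ± 0.03), whose WT libraries differed from each other more than its KO libraries.

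RNA modification gave 5 higher and 1 lower of 20, or 25% and 5%, against 25.1% higher and 25.1% lower of all tested genes. Mrm2, an rRNA methyltransferase, was at 0.48 ± 0.12. Assembly factors gave 2 higher and 4 lower of 41, or 4.88% and 9.76%, both below the shares of all tested genes. Mitophagy genes gave 6 higher and 3 lower of 19, or 31.6% and 15.8%. The receptors Optn (-0.67 ± 0.06) and Fundc1 (-0.65 ± 0.08) were lower. Calcoco1 (1.14 ± 0.14), whose role in mitophagy was not tested here, was higher. Regulators of mitochondrial biogenesis gave 3 higher and 4 lower of 11, or 27.3% and 36.4%. Among them Myc (0.80 ± 0.06) and Esrra (0.58 ± 0.06) were higher and Yy1 (-0.41 ± 0.04) was lower. Of 8 tested sensors of nucleic acid, 4 rose and 1 fell, or 50% and 12.5%. Ddx58 (RIG-I, a sensor of RNA) had 93.5 and 93.9 CPM in KO against 15.1 and 14.7 CPM in WT (2.65 ± 0.09), and Ifih1, which encodes MDA5, had 6.49 and 5.54 CPM in KO against 1.80 and 1.29 CPM in WT (1.97 ± 0.30).

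Other markers moved with these results in germinal center B cells, where 25.1% of all tested genes rose and 25.1% fell. Of the germinal center markers, 7 summed to 1136 and 1127 CPM in KO against 2328 and 2326 CPM in WT, and 7 of 7 fell, among them Gcsam (-1.76 ± 0.04) and Mybl1 (-1.55 ± 0.04). Activated B cell markers rose in 4 of 4, among them Irf4 (1.37 ± 0.06). Plasma cell markers rose in 3 of 4 tested, among them Prdm1 (1.69 ± 0.17) and Sdc1 (2.10 ± 0.23). Jchain, the most abundant of them, did not, with 456 and 464 CPM in KO against 475 and 486 CPM in WT. All plasma cell markers summed to 664 and 659 CPM in KO against 616 and 632 CPM in WT. Monocyte and macrophage markers, 12 of 12 detected, summed to 118 and 134 CPM in KO against 43.9 and 43.3 CPM in WT, and Mpeg1 alone held 69.0 and 77.7 CPM in KO against 15.4 and 15.8 CPM in WT. Erythroid markers, 7 of 7 detected, summed to 58.1 and 70.9 CPM in KO against 7.20 and 9.11 CPM in WT. Neutrophil markers summed to at most 1.82 CPM in KO and 0.350 CPM in WT, with Elane and Mpo at 0 in all 4 libraries. Of the T cell markers, Lck had 81.7 and 72.5 CPM in KO against 87.7 and 87.4 CPM in WT. The other 6 summed to 7.41 and 8.62 CPM in KO against 0.913 and 1.31 CPM in WT, and both that were tested rose, Cd4 (3.97 ± 0.56) and Trac (1.73 ± 0.52). The early-response gene Jun had 149 and 148 CPM in KO against 33.2 and 31.7 CPM in WT, and the nuclear RNA Malat1 had 174 and 174 CPM in KO against 137 and 131 CPM in WT. The part of these cells, states and signals in the mitochondrial change was not tested.

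In activated B cells the knockout changed few mitochondrial rows. Of 19 tested among 14110 genes, 2 rose and 0 fell in edgeR's quasi-likelihood test, where 6.27% of all tested genes were called, 4.85% higher and 1.42% lower. DESeq2 also gave 2 higher and 0 lower, and an unadjusted p under 0.05 was reached by 6 higher and 0 lower. In 10 of 19 rows both KO libraries lay above both WT libraries, against 24.5% of all tested genes. mt-Nd4 had 1370 and 1245 CPM in KO against 1131 and 1045 CPM in WT (log2 fold change 0.27 ± 0.06, adjusted p = 0.00453, edgeR). mt-Co1 had 12110 and 11470 CPM in KO against 10360 and 9953 CPM in WT (0.21 ± 0.05, adjusted p = 0.0157, edgeR). The groups were apart in both rows, but without WT replicate 2 their adjusted p became 0.0876 and 0.166.

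The other 17 rows did not pass, though all their fold changes were above 0. mt-Cytb had 3033 and 2753 CPM in KO against 2641 and 2549 CPM in WT (0.16 ± 0.06, adjusted p = 0.113, edgeR), and mt-Nd1 had 2347 and 2187 CPM against 2313 and 2001 CPM (0.07 ± 0.06), with groups that overlapped. mt-Rnr2 had 1221 and 1221 CPM in KO against 1207 and 1053 CPM in WT (0.11 ± 0.06). mt-Tp (0.39 ± 0.12, adjusted p = 0.0501, edgeR) and mt-Ts1 (0.26 ± 0.08, 0.0559) were closest to the threshold. The number of rows that passed ran from 1 to 6 when a library was left out, namely 3 without KO replicate 1, 6 without KO replicate 2, 6 without WT replicate 1 and 1 without WT replicate 2. Of the 77 nuclear-encoded subunits, 0 rose and 0 fell, and so it was in DESeq2, with 4 higher and 0 lower at an unadjusted p under 0.05 and a median of 0.03.

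Beside these values, activated B cell libraries differed in other cell types. Neutrophil markers, 7 of 7 detected, summed to 2327 and 1913 CPM in KO against 593 and 527 CPM in WT. Monocyte and macrophage markers summed to 1561 and 1440 CPM in KO against 959 and 917 CPM in WT, and erythroid markers to 1177 and 981 CPM in KO against 672 and 672 CPM in WT. B cell markers differed little, with 6388 and 6267 CPM in KO against 6540 and 6456 CPM in WT. Their part in the mitochondrial values was not tested.

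The difference between the 2 KO effects was tested as an interaction in 1 fit of all 8 libraries. Of 23 mitochondrial rows, 13 had a higher KO effect in germinal center B cells and 0 a lower one, where 31.2% of 14992 tested genes were called, 17.5% higher and 13.8% lower. DESeq2 gave 10 higher and 0 lower, and at an unadjusted p under 0.05 edgeR gave 14 higher and 0 lower. The 13 include both rRNAs, 9 mRNAs and the tRNA rows mt-Tq and mt-Tp. For mt-Cytb the difference was 0.72 ± 0.06 on the log2 scale, for mt-Co1 0.67 ± 0.06 and for mt-Nd6 0.50 ± 0.07. Single libraries decided several smaller calls. That of mt-Atp6 was lost when either KO germinal center replicate, WT germinal center replicate 1, KO activated replicate 2 or either WT activated replicate was left out. That of mt-Tq was lost without KO germinal center replicate 2, WT germinal center replicate 2, KO activated replicate 2, or either WT activated replicate. That of mt-Tp was lost without KO germinal center replicate 2 or WT activated replicate 1, and that of mt-Co3 without WT activated replicate 2. The nuclear-encoded subunits gave 0 higher and 37 lower of 77 in the same test, with a median of -0.30 (DESeq2 0 higher and 22 lower, unadjusted p under 0.05 in 0 higher and 46 lower).

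Between cell types all 13 mRNAs were higher in germinal center B cells, in KO and in WT, whereas mt-Rnr1, mt-Tq and mt-Ts1 were lower. In WT, 20 of 23 rows were higher and 3 lower in germinal center B cells, and of 14426 tested genes 82.2% were called, 40.3% higher and 41.8% lower. KO also gave 20 higher and 3 lower, and of 14307 tested genes 78.7% were called, 39.2% higher and 39.5% lower. These comparisons share their libraries with those of KO against WT. With scaling to total counts, the median over all genes shifted to -0.19 in KO and -0.16 in WT. All 23 rows were apart between the groups in each genotype, against 44.2% of genes apart and higher and 46.0% apart and lower in WT, and 43.9% and 44.7% in KO. Within WT, mt-Cytb had 9879 and 9652 CPM in germinal center against 2546 and 2453 CPM in activated B cells, a log2 fold change of 1.97 ± 0.05. Within KO it had 17440 and 17730 CPM against 2839 and 2577 CPM, 2.70 ± 0.05. The cell types also differed in markers of other cells. Neutrophil markers summed to at most 1.82 CPM in KO and 0.350 CPM in WT germinal center B cells, against 2327 and 1913 CPM in KO and 593 and 527 CPM in WT activated B cells. Monocyte and macrophage markers were at 43.3 to 134 CPM in germinal center and 917 to 1561 CPM in activated libraries, and erythroid markers at 7.20 to 70.9 and 672 to 1177 CPM. Their part in this comparison was not tested. Nuclear-encoded subunits were mostly higher in WT germinal center B cells too, with 31 of 36 in complex I, 7 of 9 in complex III, 11 of 11 in complex IV and 16 of 17 in complex V.

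The 3 lower rows were the same in both genotypes. mt-Rnr1 had 289 and 305 CPM in WT germinal center against 697 and 592 CPM in WT activated B cells (-1.12 ± 0.05), and 538 and 565 CPM against 731 and 629 CPM in KO (-0.30 ± 0.05). mt-Ts1 had 44.8 and 39.0 CPM in WT germinal center against 174 and 171 CPM in WT activated B cells (-2.05 ± 0.06), and within KO its log2 fold change was -1.83 ± 0.09. mt-Tq was lower as well (-0.58 ± 0.18 in KO and -1.29 ± 0.20 in WT), and its call in KO was lost in DESeq2 (adjusted p = 0.0623) and without KO germinal center replicate 1 (0.0765). mt-Rnr2 had 1978 and 2027 CPM in KO germinal center against 1143 and 1143 CPM in KO activated B cells (0.81 ± 0.04). In WT it was higher by less (0.17 ± 0.05), a call that was lost with scaling to total counts (0.05, adjusted p = 0.312) and without WT activated replicate 2 (0.07, adjusted p = 0.132). Within libraries, rRNA rows held 26.5 and 26.2 counts per 1000 mitochondrial mRNA counts in KO against 27.7 and 28.2 in WT germinal center B cells, and 81.4 and 80.9 in KO against 87.5 and 81.3 in WT activated B cells. This ratio separated the cell types completely.

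Composition among the mRNAs differed by cell type too. Relative to mitochondrial mRNA as a whole, 10 rows were higher and 6 lower in WT germinal center than in WT activated B cells. On this scale 9.47% of all tested genes were higher and 81.8% lower, and the median over all of them was -1.45. mt-Cytb was higher (0.55 ± 0.09), and mt-Nd2 (-0.48 ± 0.09), mt-Nd6 (-0.94 ± 0.09), mt-Rnr2 (-1.24 ± 0.09), mt-Rnr1 (-2.53 ± 0.09), mt-Tq (-2.70 ± 0.21) and mt-Ts1 (-3.46 ± 0.10) were lower. Neither mt-Co1 (-0.02 ± 0.09), mt-Nd1 (-0.08 ± 0.09), mt-Nd4 nor mt-Nd5 passed. As a share of mitochondrial mRNA counts, mt-Cytb took 18.4% and 17.9% in KO against 17.7% and 18.0% in WT germinal center B cells, and 12.3% and 11.8% in KO against 11.97% and 12.4% in WT activated B cells. mt-Nd6 took 2.69% and 2.65% in KO against 3.05% and 3.13% in WT germinal center B cells, and 5.46% and 6.21% in KO against 6.37% and 5.48% in WT activated B cells. These shares did not overlap between the cell types in either genotype.

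**Figure D5:**
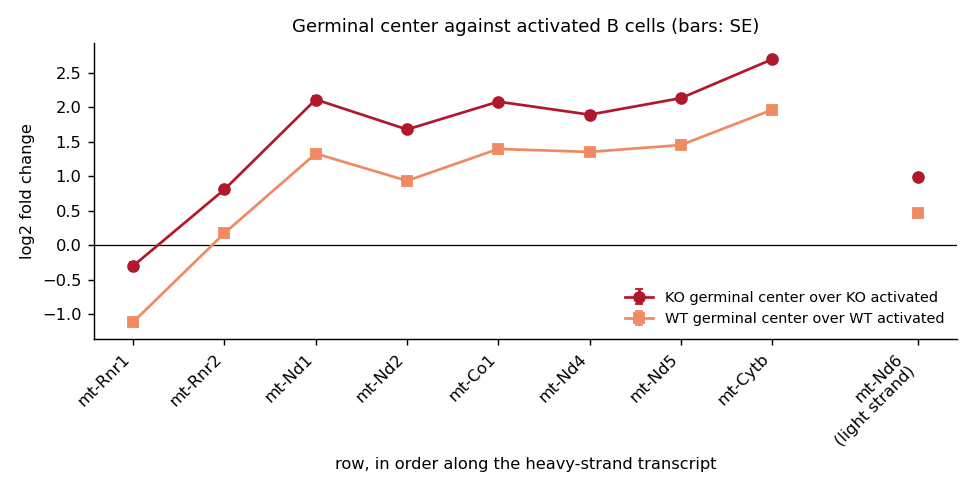
Log2 fold change of germinal center over activated B cells within KO (circles) and within WT (squares). Shown are the 8 heavy-strand mRNA and rRNA rows that do not lie wholly within the copied stretch, in order along their transcript. mt-Nd6, on the other strand, is shown last. Bars are the SE of the edgeR fit and are mostly smaller than the symbols. Values run from -0.30 at mt-Rnr1 to 2.70 at mt-Cytb in KO and from -1.12 to 1.97 in WT.

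For rows of the heavy-strand precursor that do not lie wholly within the copied stretch, the difference between cell types followed their order along the genome. Of these rows, mt-Nd4 is matched by the copy over 63.6% of its length and mt-Co1 over 31.3%. Spearman's rho between order and log2 fold change was 0.833 in KO and 0.952 in WT over 8 rows, and 0.600 and 0.886 over the 6 mRNAs alone. For KO against WT it was -0.119 in germinal center and 0.571 in activated B cells, where the rows spanned only 0.19 and 0.20 on the log2 scale, against 3.0 in KO and 3.08 in WT between cell types. The order was examined after the values had been seen and is a description of 8 rows that share libraries, so no p is given.

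The rows within the copied stretch differed strongly between cell types, and so did the copy Gm28661. mt-Co2 had 38.7 and 39.9 CPM in WT germinal center against 2.72 and 2.82 CPM in WT activated B cells (log2 fold change 3.82 ± 0.16; within KO 4.46 ± 0.13), and its copy Gm28661 had 31.0 and 28.8 CPM against 2.62 and 2.51 CPM (3.53 ± 0.17). mt-Atp6 (3.33 ± 0.19) and mt-Co3 (2.87 ± 0.15) were higher as well, each above the 1.97 of mt-Cytb. mt-Nd3 rested on 20 and 37 counts in WT germinal center against 1 and 2 in WT activated B cells. Over the copied bases, reads of the 2 genomes cannot be told apart by sequence, so these fold changes may describe either.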

How the data were processed

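The authors' deposited files hold raw read counts per gene, 1 file per library, with Ensembl gene identifiers that were matched to symbols and positions in GENCODE M21. Trimmomatic, DESeq2 and the mm10 build are named per the submitters' processing notes, whereas the aligner, the counting tool and the use of strand in counting were not given in the sources used here. Entries that name no gene were left out of library sizes. Reads without a gene made up 47.2% to 53.9% of all entries and ambiguous reads 1.12% to 1.26%.

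Genes were filtered with edgeR's filterByExpr, scaled by TMM and tested with edgeR 4.0.16 (quasi-likelihood F test) in R 4.3.3, on the 4 libraries of each comparison or on all 8 for the interaction. P-values were Benjamini-Hochberg adjusted over all tested genes, with a threshold of 0.05. SE is the log2 fold change divided by the square root of F. The scripts were tested on simulated data. DESeq2 1.42.0, other scalings, no filter, and each library left out were alternatives. Nuclear copies were found with BLAST 2.17.0 (identity of at least 90% over at least 80% of the copy and 60 bases). Intervals and floors cover counting error only.

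All mRNA and rRNA rows are named, tRNA rows where tested or with at least 10 counts, and of each nuclear list up to 4 genes with the lowest p in germinal center B cells. Members, lists and this rule were chosen with earlier results of these data known. Of 436 distinct symbols on the lists, 434 matched. 1 germinal center marker is not reported here.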

Additional observations from a re-analysis of the deposited data

Results flagged for a closer look

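The KO effect differed between germinal center and activated B cells in 13 of 23 mitochondrial rows by the interaction test in edgeR. As germinal center minus activated effect on the log2 scale, the difference was 0.798 for mt-Rnr1, 0.617 for mt-Rnr2, 0.768 for mt-Nd1, 0.728 for mt-Nd2 and 0.669 for mt-Co1. For mt-Nd4 it was 0.523, for mt-Nd5 0.663, for mt-Nd6 0.495, and for mt-Cytb 0.715. Less deeply counted rows gave 0.775 for mt-Atp6, 0.943 for mt-Co3, 0.691 for mt-Tq and 0.432 for mt-Tp.

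Reads placed at more than 1 position, which no comparison of genes uses, made up 9.22% of all entries in KO germinal center B cells, against 6.93% in WT germinal center B cells.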

How the results depend on the processing

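Over the 23 tested mitochondrial rows, 1520 of 1612 alternative values stayed on the same side of the threshold, 62 lost a call and 30 gained one. Sign was followed only where a row was called in the main or the alternative fit, and there 0 changed sign. Calls in activated B cells moved most: 2 rows passed, against 4 with nuclear scaling, 3 with total counts, 5 in 1 fit of all 8 libraries, 6 with the replicate block, and 1 to 6 with a library left out. Differences between replicates 1 and 2 were nearly uncorrelated between groups (correlations -0.0283 to 0.0325). These differences also hold counting error, so they cannot show whether replicate numbers pair the libraries. In germinal center B cells 22 rows passed, against 17 in DESeq2 and 17 to 21 with a library left out, and relative to mitochondrial mRNA 8, against 5 to 8 and 6 with the block. For the nuclear-encoded subunits, alternatives chosen after seeing the data gave 40 in DESeq2, 66 with total counts and 47 to 53 with a library left out, against 58. With all entries as denominator the mitochondrial share was 3.97% in KO against 2.33% in WT germinal center B cells, and 1.07% in KO against 0.947% in WT activated B cells. Without rRNA it was 2.41% and 2.16% in KO and WT activated B cells. Single libraries spanned 9.20% to 9.52%, 5.27% to 5.51%, 2.54% to 2.66% and 2.26% to 2.42% in the same order of groups. The causes were not tested. Depth limits the rows with few counts: mt-Atp8, mt-Nd3, mt-Nd4l and mt-Tt.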
